A study of Mus musculus with 6 samples.

Results

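The SR proteins are RNA-binding splicing factors that carry RNA recognition motifs and a tail rich in arginine and serine dipeptides. They bind exonic enhancers, help the spliceosome to define exons and gather in nuclear speckles, where kinases of the CLK and SRPK families phosphorylate their tails. Most SR genes limit their own level: when the protein is abundant, it favours a transcript form with a premature stop codon, often brought in by a poison exon, and that form is removed by nonsense-mediated decay (NMD). The 10 genes described here are Srsf1, Srsf2, Srsf3, Srsf4, Srsf5, Srsf6, Srsf7, Srsf9, Srsf10 and Srsf11, taken by gene name from the 55487 genes of the deposited count table. They were chosen as a family and not by their measured values, but with earlier results of these data known. All 10 had enough counts to be tested.

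The RNA came from αTC1 cells, a mouse glucagonoma line of pancreatic α cells, all named WT in the count table. In 3 libraries the cells had been treated with G786-1089, described as the SMNDC1 inhibitor and taken here to be compound 1 of the study, and in 3 with DMSO, its solvent. SMNDC1 is a splicing factor of nuclear speckles that reads methylated arginine through its Tudor domain. The comparison asks what treatment with the compound does to expression. The study calls compound 1 non-selective, saw effects on the related protein SMN as well, and reports cell death after longer treatment. The labels give no dose or duration for these libraries; the study states that treatments of a replicate came from 1 batch of cells and were handled together, but not whether replicates differed in batch, so p-values measure only the spread between these libraries. The cells are a tumour line, and in bulk RNA a change in each cell cannot be told apart from a change in the share of cells that express a gene.

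Totals were between 59070705 and 94747943 counts, and each inhibitor library was deeper than each DMSO library. Of the α cell markers, Gcg, which encodes glucagon, was abundant in all 6 libraries. The summed level of the 11 α cell markers was 24780 to 27630 CPM (the count rate per library size, after scaling of the libraries by the trimmed mean of M-values, TMM) with DMSO and 5635 to 6411 CPM with the inhibitor. Among 9 markers of other islet cells, 5 had 0 counts throughout (Ins1, Pdx1, Sst, Ppy and Hhex), and the sum was 9.02 to 15.4 CPM with DMSO and 4.82 to 10.7 CPM with the inhibitor. The sum of 10 markers of non-endocrine cells was 17.6 to 28.9 CPM with DMSO and 35.6 to 66.0 CPM with the inhibitor, with Col3a1, Cpa1 and Prss1 at 0 counts. The part of these differences in the results below was not tested. Smndc1 itself had 2.12 ± 0.575 CPM with DMSO and 3.80 ± 2.43 CPM with the inhibitor (SD, n = 3 libraries each), ranges that overlapped (log2 fold change 0.84, edgeR adjusted p = 0.481).

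The annotation of the mouse genome GRCm38 (GENCODE vM21) lists 85 transcripts for the 10 genes, of which 15 are marked as targets of NMD and 26 as transcripts with a retained intron. The counts were made on the basic set of transcripts, which holds 25 of the 85 and 0 of the 15. For 5 genes the exon that carries the premature stop lies wholly outside the counted exons. For the others with such a transcript the exon with the stop lies inside them in whole or in part. In Srsf6 most of its bases lie inside. For 6 genes the coding bases of these exons up to and including the premature stop are shown. The counts per gene can miss them (Srsf3, Srsf4, Srsf7, Srsf9, Srsf11) or include them in part (Srsf6). They are taken from the GENCODE transcript sequences, written 5′ to 3′ on the strand of the gene, with the stop codon in capitals.
Srsf3, plus strand, chr17:29039454-29039487: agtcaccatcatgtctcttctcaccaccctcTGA
Srsf4, plus strand, chr4:131884276-131884390: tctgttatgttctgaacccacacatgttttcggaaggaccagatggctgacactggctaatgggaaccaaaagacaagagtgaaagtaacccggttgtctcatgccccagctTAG
Srsf6, plus strand, chr2:162932815-162932966: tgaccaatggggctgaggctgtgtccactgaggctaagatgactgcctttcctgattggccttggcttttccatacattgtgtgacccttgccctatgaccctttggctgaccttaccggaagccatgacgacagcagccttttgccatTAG
Srsf7, minus strand, chr17:80205054-80205081: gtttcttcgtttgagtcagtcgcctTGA
Srsf9, plus strand, chr5:115328347-115328428: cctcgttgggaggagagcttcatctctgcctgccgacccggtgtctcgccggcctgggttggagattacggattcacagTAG
Srsf11, minus strand, chr3:158024209-158024231: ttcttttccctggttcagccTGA

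The Srsf3 exon is 456 bases long and reaches its stop after 31 bases, and the Srsf7 exon is 460 bases long and reaches it after 25. The exons of Srsf9, Srsf4 and Srsf11 are 358, 207 and 109 bases long and place the stop after 79, 112 and 20 bases. Another Srsf11 exon with such a stop, not shown, has 117 bases with the stop after 47 and also lies outside the counted exons. In Srsf6 the exon has 268 bases, of which 61.6% lie in the counted set, and the stop follows after 149. For Srsf1 and Srsf2 the exon with the stop lies inside the counted exons, and for Srsf5 26.7% of it does. In Srsf2 that exon is held whole by 2 of the 2 counted transcripts. Whether its stop is premature or the normal stop of the gene was not checked. Srsf10 has no transcript marked for NMD in this annotation. A read from a poison exon alone in Srsf3, Srsf4, Srsf7, Srsf9 or Srsf11 would therefore not be counted, while a read that also touches a counted exon can be, so the values per gene do not measure how much of each form was present.

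Of the 10 SR genes, 2 rose with the inhibitor (Srsf4 and Srsf6), 2 fell (Srsf3 and Srsf9) and 6 did not pass the test, which was edgeR's quasi-likelihood test with an adjusted p under 0.05 over 15082 tested genes. In the same test 14.8% of all genes passed, 6.98% as higher (1053 genes) and 7.8% as lower (1177 genes). On plain library sizes, without TMM, 1630 genes were higher and 796 lower, and of the SR genes 4 were higher and 1 lower. The median log2 fold change was 0.13 over the 10 genes and 0.04 over all tested genes. Values in the groups did not overlap for 7 of the 10 genes, 4 higher with the inhibitor and 3 lower, against 36.7% of all tested genes (18.2% higher and 18.5% lower). With the limits the study used to filter genes (adjusted p of at most 0.1 and a log2 fold change of at least 1 in size), Srsf4 passed as higher and Srsf9 as lower, against 10.4% of all genes (6.25% higher and 4.16% lower).

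**Figure D1:**
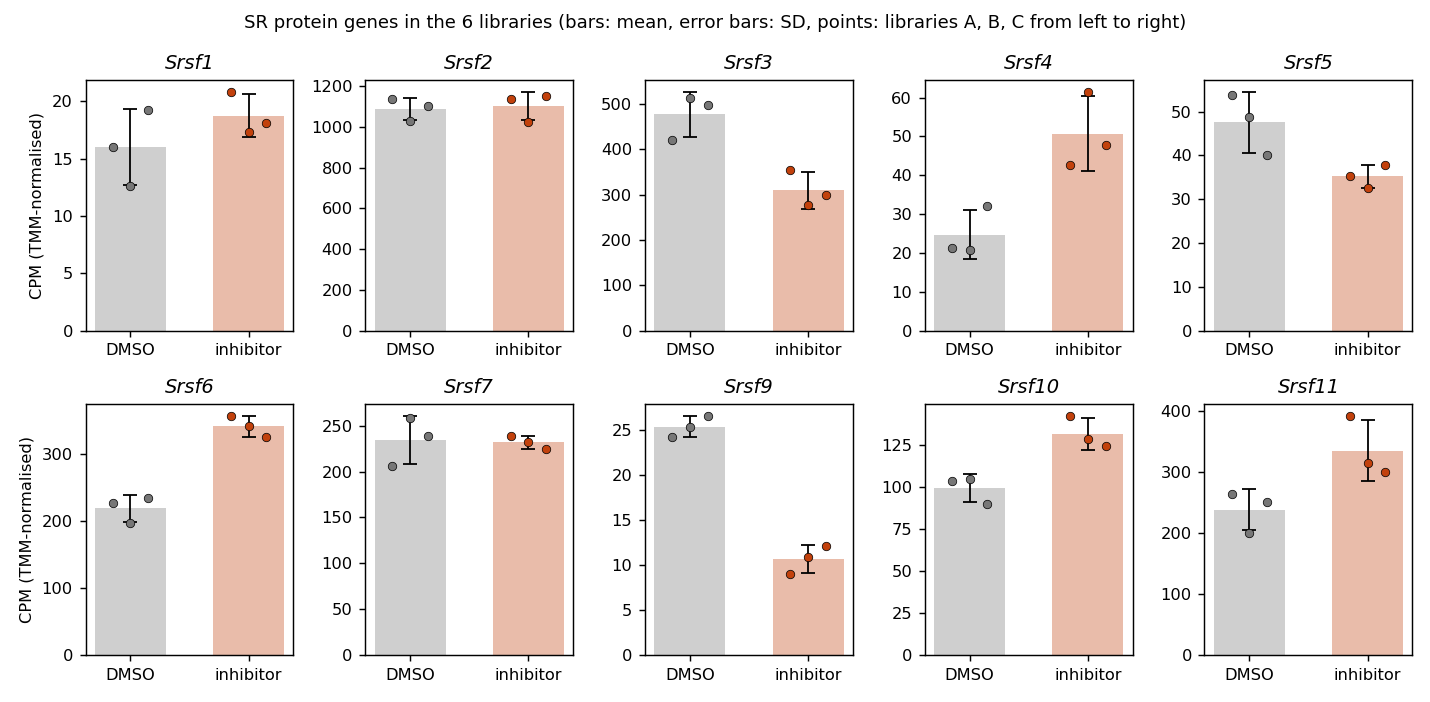
Level of each SR gene in CPM (vertical axes, each from 0) in the 3 DMSO and the 3 inhibitor libraries; bars are means, error bars SD and points single libraries. The points of the groups are apart for Srsf3, Srsf4, Srsf5, Srsf6, Srsf9, Srsf10 and Srsf11, and mixed for Srsf1, Srsf2 and Srsf7.

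Srsf4, Srsf5 and Srsf6 encode closely related SR proteins with paired RNA recognition motifs, and their RNAs did not move together. Srsf6 (ENSMUSG00000016921, chromosome 2, 162931528 to 162937121) had 227.2, 196.8 and 234.1 CPM in the DMSO libraries A, B and C and 357.2, 342.3 and 325.9 CPM in the inhibitor libraries. Every inhibitor library lay above every DMSO library by a wide margin. The level rose 1.56-fold, a log2 fold change of 0.64 (standard error 0.09, edgeR adjusted p = 0.00658). Of the 10 genes it was the only one called with each library left out in turn, with adjusted p-values of 0.0214 to 0.028.

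Srsf4 (ENSMUSG00000028911, chromosome 4, 131873617 to 131901706) had 21.3, 20.7 and 32.1 CPM with DMSO and 42.8, 61.5 and 47.9 CPM with the inhibitor. DMSO library C was the highest of its group and inhibitor library B the highest of all 6, and the groups did not overlap. The level rose 2.05-fold, a log2 fold change of 1.04 (standard error 0.24, edgeR adjusted p = 0.0344). The call rested on most of the libraries: the adjusted p was 0.034 without DMSO library C, but 0.0553, 0.096 and 0.0804 without inhibitor libraries A, B and C and 0.115 and 0.109 without DMSO libraries A and B. With the column letter (A, B or C) as a replicate block it was 0.0773. Of the counted exon bases of Srsf4, 67.9% also lie in exons of the gene Gm12992, and the counting took no account of strand. Gm12992 was given 328 counts in inhibitor library B, which had the highest Srsf4 level, 104 in DMSO library B, which had the lowest, and 0 to 3 in the others.

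Srsf5 (ENSMUSG00000021134, chromosome 12, 80945504 to 80950507) had 53.8, 48.7 and 40.0 CPM with DMSO and 35.2, 32.4 and 37.9 CPM with the inhibitor. The inhibitor libraries were all below the DMSO libraries, the nearest of them by a small step. The log2 fold change of -0.43 (standard error 0.17) did not pass the test (edgeR adjusted p = 0.152), and DESeq2 gave an adjusted p of 0.0279. Srsf5 has a near-identical copy, the processed pseudogene Gm12966, with 49 to 93 counts per library, against 2175 to 3285 for Srsf5.

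Srsf1 and Srsf9 encode the pair of SR proteins that carry a pseudo-RNA recognition motif beside a canonical one. Srsf1, known as an oncogenic splicing factor, is on chromosome 11 (ENSMUSG00000018379, 88047373 to 88053755). It had 16.0, 12.6 and 19.3 CPM with DMSO and 20.8, 17.3 and 18.1 CPM with the inhibitor, values that were mixed between the groups (log2 fold change 0.23, standard error 0.24, edgeR adjusted p = 0.603). Srsf9 (ENSMUSG00000029538, chromosome 5, 115327177 to 115333080) had 24.3, 25.4 and 26.6 CPM with DMSO and 9.04, 10.9 and 12.2 CPM with the inhibitor. Within each group its libraries were close to each other, and the groups were far apart. The level was 2.38-fold lower with the inhibitor, a log2 fold change of -1.25 (standard error 0.21, edgeR adjusted p = 0.0112), the largest change of the family in size in this fit, although Srsf4 exceeded it on plain library sizes (1.24 against -1.04) and without DMSO library C (1.26 against -1.22) or inhibitor library A (1.15 against -1.14). Without DMSO library C the adjusted p was 0.051, and it was between 0.0281 and 0.0453 with any other library left out.

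Srsf3 and Srsf7 encode small SR proteins with 1 RNA recognition motif, in Srsf7 followed by a zinc knuckle, that also act in mRNA export. Srsf3 (ENSMUSG00000071172, chromosome 17, 29032628 to 29043373) had 420.0, 514.1 and 497.0 CPM with DMSO and 355.4, 276.2 and 298.3 CPM with the inhibitor. The highest inhibitor library, A, was below the lowest DMSO library, also A. The level was 1.54-fold lower with the inhibitor, a log2 fold change of -0.62 (standard error 0.12, edgeR adjusted p = 0.0198). The adjusted p stayed under 0.05 without inhibitor library A (0.0194) and without DMSO library A (0.0305), and was 0.0581 and 0.071 without inhibitor libraries B and C and 0.069 and 0.0695 without DMSO libraries B and C. Without TMM, on plain library sizes, it was 0.0647, and with the column letter as a replicate block 0.0764.

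Reads of Srsf3 can be split with near-identical copies, of which the one with the most counts was the processed pseudogene Gm9761 (492 aligned bases, 99.6% identity). Gm9761 had 23.7, 27.9 and 23.9 CPM with DMSO and 20.1, 15.9 and 20.4 CPM with the inhibitor, small beside the parent gene and in the same order between groups. The copy with the longest alignment was Gm12355, or Srsf3-ps (1298 aligned bases, 98.3% identity). It had 8.61, 12.74 and 11.15 CPM with DMSO and 8.84, 6.65 and 8.95 CPM with the inhibitor, values that were mixed between the groups. Srsf7 (ENSMUSG00000024097, chromosome 17, 80200080 to 80207307) had 206.1, 258.2 and 238.7 CPM with DMSO and 238.9, 232.1 and 224.6 CPM with the inhibitor. The inhibitor libraries lay within the range of the DMSO libraries (log2 fold change -0.02, standard error 0.10, edgeR adjusted p = 0.944).

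Srsf2, also known as SC35, promotes exon inclusion and early spliceosome assembly. Its gene (ENSMUSG00000034120, chromosome 11, 116849901 to 116853094) had by far the most counts of the family, with 1137, 1031 and 1100 CPM with DMSO and 1137, 1025 and 1150 CPM with the inhibitor. The groups were mixed, and the log2 fold change of 0.02 was smaller than its standard error of 0.07 (edgeR adjusted p = 0.889). Transcripts annotated for the neighbouring genes Mettl23 and Mfsd11 share stretches of 460 and 289 bases with it, although the counted exons of these genes do not overlap those of Srsf2.

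Srsf10 and Srsf11 are the more distant members. Srsf10 (ENSMUSG00000028676, chromosome 4, 135855747 to 135869908), a splicing repressor when dephosphorylated, had 103.8, 104.7 and 90.0 CPM with DMSO and 142.3, 128.5 and 124.4 CPM with the inhibitor. Every inhibitor library was above every DMSO library, yet the log2 fold change of 0.40 (standard error 0.11) missed the threshold (edgeR adjusted p = 0.0598). With offsets for gene length it was 0.12 (adjusted p = 0.574); at 5841 exon bases Srsf10 is the longest gene of the family. It has near-identical copies in the processed pseudogenes Gm5446 and Gm9134, with 20 to 66 and 70 to 207 counts per library. Srsf11 (ENSMUSG00000055436, chromosome 3, 158010473 to 158036639) had 263.9, 199.5 and 249.9 CPM with DMSO and 391.1, 313.9 and 298.7 CPM with the inhibitor. Its groups did not overlap either, and the edgeR adjusted p was 0.0737 at a log2 fold change of 0.49 (standard error 0.15). DESeq2 called both genes, with adjusted p-values of 0.00111 for Srsf10 and 0.0112 for Srsf11.

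**Figure D2:**
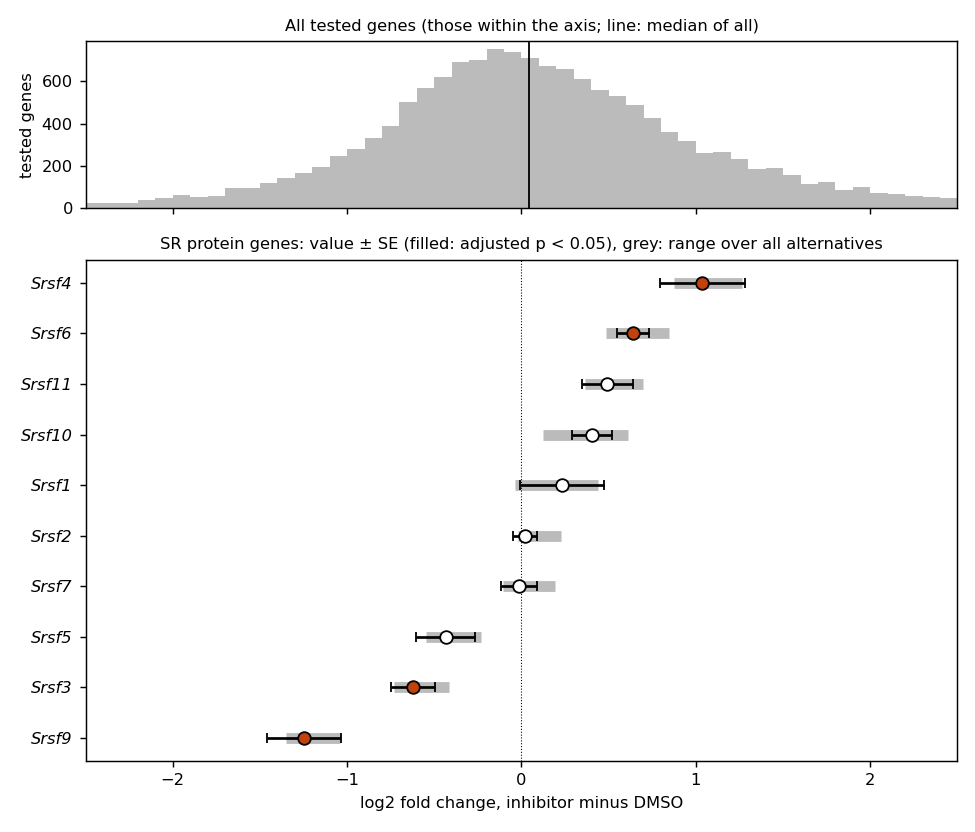
Above, the number of tested genes by log2 fold change (inhibitor minus DMSO). Below, the log2 fold change of each SR gene with its standard error (filled where the edgeR adjusted p is under 0.05) over the range of all alternatives in grey; Srsf4 and Srsf6 lie highest, Srsf3 and Srsf9 lowest, and no grey bar of these 4 reaches 0.

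Because SR proteins share binding sites and targets, the make-up of the family was also compared. For this FPKM was used (counts per kilobase of exon on a common library scale). Levels between genes are comparable only if reads were counted alike, and how a read on several transcripts of 1 gene was counted is not given. The share of exon bases in only 1 counted transcript ran from 8.8% for Srsf5 to 100% for Srsf3, Srsf4 and Srsf9. In Srsf4, however, 67.9% of the counted exon bases also lie in exons of another gene, Gm12992. What sharing between transcripts or genes did to the order and the shares was not tested. With DMSO the order was Srsf2 with 499.6 ± 25.3 FPKM, Srsf3 with 167.4 ± 17.6, Srsf7 with 83.5 ± 9.32, Srsf11 with 67.8 ± 9.75 and Srsf6 with 54.6 ± 5.05 (SD, n = 3 libraries each). It went on with Srsf5 at 26.4 ± 3.84 FPKM, Srsf9 at 20.1 ± 0.949, Srsf10 at 15.6 ± 1.27, Srsf4 at 10.1 ± 2.63 and Srsf1 at 2.64 ± 0.552. Ranges of neighbours in this order overlapped for Srsf7 and Srsf11 and for Srsf11 and Srsf6, and were separate for all other neighbours. The low level of Srsf1 rests on 821 to 1734 counts per library over 5558 exon bases.

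The sum over the 10 genes was 947.6 ± 23.3 FPKM with DMSO and 948.0 ± 46.5 FPKM with the inhibitor (SD, n = 3 each). On this scale the difference is far below the spread between libraries, but the sum depends on how libraries are scaled. Srsf2, its largest part, had a log2 fold change of 0.02 with TMM and 0.23 on plain library sizes. The shares within that sum, which do not depend on how libraries are scaled, shifted. The share of Srsf3 was 15.5% to 19.5% in the DMSO libraries and 10.8% to 12.5% in the inhibitor libraries. That of Srsf9 was 2.02% to 2.17% with DMSO and 0.714% to 1.01% with the inhibitor, and that of Srsf5 2.29% to 3.14% and 1.95% to 2.21%. In the other direction, Srsf6 made up 5.29% to 6.02% with DMSO and 8.53% to 9.47% with the inhibitor, and Srsf11 6.14% to 7.91% and 8.95% to 11.1%. The shares of Srsf4 (0.912% to 1.35% against 1.74% to 2.79%) and Srsf10 (1.46% to 1.78% against 2.06% to 2.25%) were also higher in each inhibitor library than in any DMSO library. Srsf2 stayed at 51.1% to 54.9% with DMSO and 52.1% to 55.5% with the inhibitor, and the ranges of Srsf1 and Srsf7 overlapped as well.

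**Figure D3:**
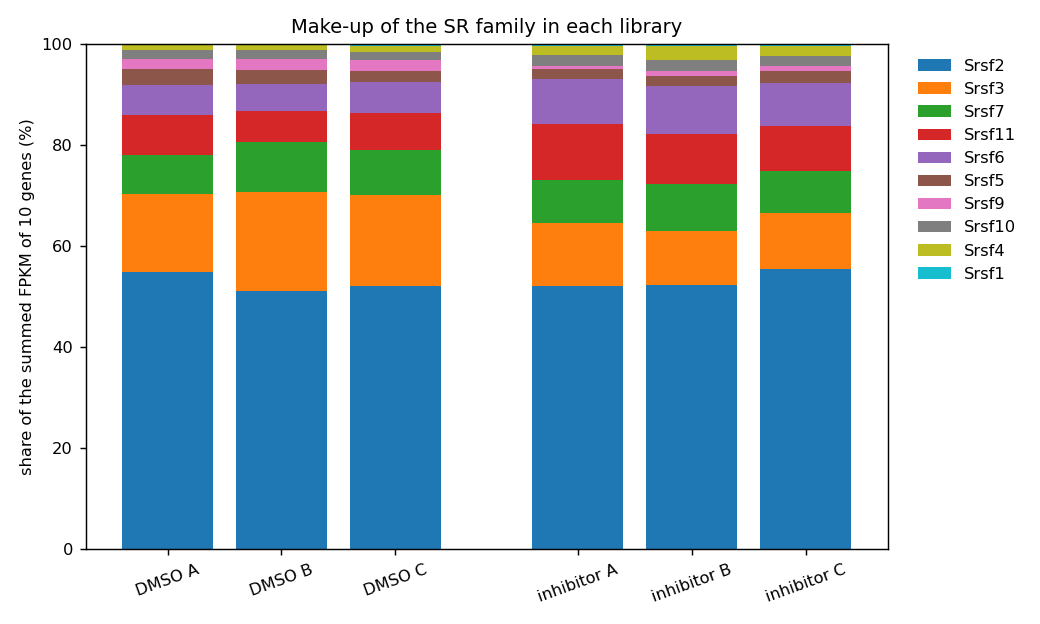
Share of each SR gene in the summed FPKM of the 10 genes (vertical axis, %) in each library; each bar adds to 100%. Srsf2 takes 51.1% to 55.5% of every bar, the Srsf3 segment is smaller in the inhibitor libraries and the Srsf6 and Srsf11 segments are larger.

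Related members were then compared within each library, as the log2 ratio of their CPM, which removes the scaling of the library. The ratio of Srsf3 to Srsf7 was 1.03 ± 0.03 with DMSO and 0.41 ± 0.16 with the inhibitor (SD, n = 3 each), a difference of -0.62. That of Srsf5 to Srsf6 was -2.21 ± 0.29 and -3.28 ± 0.16, a difference of -1.07. In both pairs each inhibitor library lay below each DMSO library. The ratio of Srsf1 to Srsf9 went the other way, from -0.69 ± 0.28 with DMSO to 0.82 ± 0.34 with the inhibitor. Per length Srsf9 stayed above Srsf1 in every library, with 7.10 to 9.56 FPKM against 2.87 to 3.42 FPKM in the inhibitor libraries. The ratio of Srsf4 to Srsf5 likewise was -0.96 ± 0.56 and 0.51 ± 0.36, a difference of 1.48. The ratio of Srsf4 to Srsf6, which both rose, was -3.18 ± 0.28 and -2.77 ± 0.29, ranges that overlapped. In a two-sided exact permutation test of 3 libraries against 3, which cannot give less than 0.1, p was 0.1 for the first 4 pairs and 0.2 for the last (0.125 and 0.2 after Benjamini-Hochberg adjustment over the 5 pairs), so no pair could pass 0.05.

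**Figure D4:**
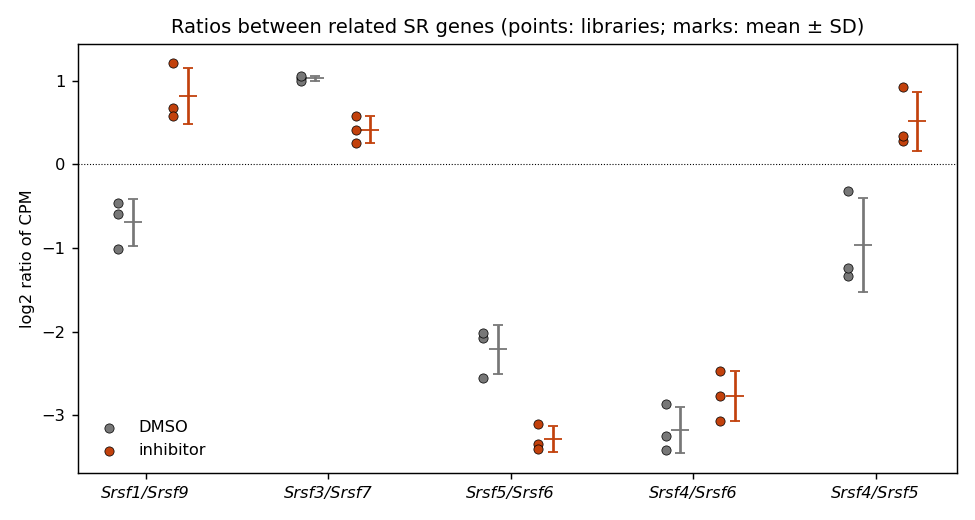
Log2 ratio of CPM between related SR genes (vertical axis) in the DMSO and inhibitor libraries; points are libraries and marks the mean with SD. The groups are apart for Srsf1/Srsf9, Srsf3/Srsf7, Srsf5/Srsf6 and Srsf4/Srsf5 and overlap for Srsf4/Srsf6.

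Around the SR proteins stand other factors with arginine-serine tails, among them the speckle scaffolds and splicing coactivators. Of 35 such genes 34 were tested; 9 rose, 1 fell and 24 did not pass the test, with a median log2 fold change of 0.42. Of all tested genes 6.98% rose and 7.8% fell. Rbm39, a coactivator that works with the U2AF splicing factor, rose from 438.9 ± 16.9 to 999.0 ± 52.7 CPM (SD, n = 3 each; log2 fold change 1.19, standard error 0.07, edgeR adjusted p = 0.000236). Clasrp, a partner of CLK4, had a log2 fold change of 1.75 (edgeR adjusted p = 0.0134). The related speckle proteins Thrap3 and Bclaf1 had 0.91 and 0.52 (edgeR adjusted p = 0.0155 and 0.0161). The 1 gene that fell was Zranb2, a zinc finger splicing factor named here after its value was seen, from 153.2 ± 20.8 to 73.6 ± 18.8 CPM. Offsets for gene length left 4 higher and 1 lower and a median of 0.19, beside 835 higher and 1168 lower of 15058 tested genes. Without inhibitor libraries A, B and C 5, 7 and 6 rose, and without DMSO libraries A, B and C 3, 4 and 4, with Zranb2 called only without inhibitor library B or DMSO library A. Over all tested genes, 545 to 613 rose and 706 to 943 fell with 1 library left out, of 15899 to 16017 tested. Srsf12, a relative of Srsf10, was not tested: it had 128 counts in inhibitor library C and 0 in the other libraries.

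The kinases that phosphorylate SR proteins, with their nuclear importer, had positive fold changes in all 9 genes tested of 10, and 4 rose (median 0.63), against 6.98% of all tested genes. DESeq2 called 5 higher and 1 lower, beside 2171 higher and 2105 lower of all 23783 genes it was run on. The 1 lower was Srpk3, which edgeR did not test. It had 6, 287 and 211 counts with DMSO and 0, 0 and 6 with the inhibitor. Clk4 rose from 61.2 ± 12.5 to 193.7 ± 50.7 CPM (SD, n = 3 each; log2 fold change 1.66, standard error 0.23, edgeR adjusted p = 0.00542). The others were Prpf4b with a log2 fold change of 0.97 (edgeR adjusted p = 0.0255), Srpk2 with 0.82 (0.0287) and Clk1 with 0.63 (0.0356). With offsets for gene length 2 were called higher, beside 835 of 15058 tested genes. The number was 1, 1 and 4 without inhibitor libraries A, B and C and 1, 2 and 3 without DMSO libraries A, B and C.

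Of 26 genes for hnRNPs, PTB and PCBP proteins, RNA-binding factors that often oppose SR proteins at exons, 9 fell, 0 rose and 17 did not pass edgeR's test, with a median of -0.44, while 7.8% of all tested genes fell and 6.98% rose. Hnrnpa1, the classic antagonist of Srsf1 in splice site choice, fell from 283.9 ± 27.9 to 129.8 ± 8.93 CPM (SD, n = 3 each; log2 fold change -1.13, standard error 0.11, edgeR adjusted p = 0.00122). Hnrnpab had -1.15, Hnrnpk -0.79 and Hnrnpm -0.77 (edgeR adjusted p = 0.00122, 0.000917 and 0.00193). The count of genes that fell was 7 or 8 with single libraries left out and 12 with offsets for gene length. DESeq2 gave 11 lower and 1 higher. Over all tested genes 1168 of 15058 fell with offsets for gene length, and DESeq2 gave 2105 of 23783 lower and 2171 higher.

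The factors of NMD, which remove the poison exon forms, went in both directions: of 18 tested, 2 rose, 2 fell and 14 did not pass the test, beside 14.8% of all tested genes that passed in either direction. The median was 0.30, but 0.13 with offsets for gene length and 0.06 without inhibitor library C. Upf2, the bridge of the core complex, rose from 13.2 ± 2.50 to 32.2 ± 6.33 CPM (SD, n = 3 each; log2 fold change 1.29, edgeR adjusted p = 0.0168). Smg9, a regulator of the SMG1 kinase, had 2.31 (edgeR adjusted p = 0.00734). The members that fell were Eif4a3 and Rbm8a, core parts of the exon junction complex, with -0.39 and -0.46 (edgeR adjusted p = 0.0365 and 0.0417). Neither was called on plain library sizes. With 1 library left out Rbm8a was not called at all and Eif4a3 only without inhibitor library B or DMSO library A, and 1 gene rose without inhibitor library A or DMSO libraries A or B. The central helicase gene Upf1 had only 1.19 CPM with DMSO and 1.45 CPM with the inhibitor. Upf1, Srsf12 and Srpk3 are named after their values were seen. The lists were chosen with earlier results of these data known. Their counts describe the libraries and were not tested as sets.

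**Figure D5:**
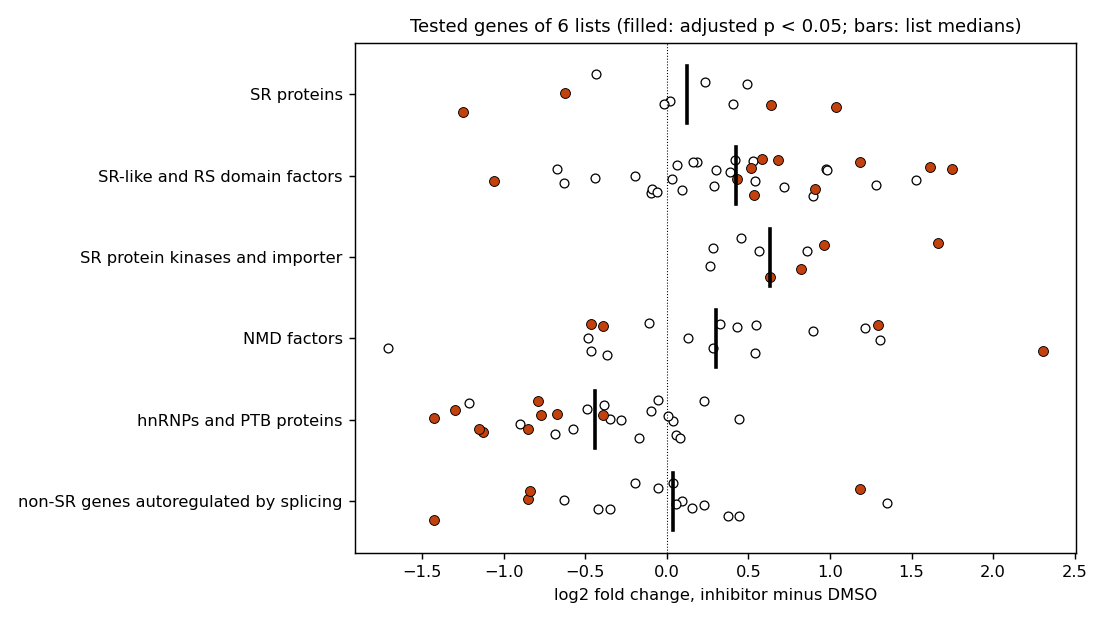
Log2 fold change (inhibitor minus DMSO) of each tested gene in the SR family, the 4 neighbouring lists and the non-SR genes with splicing autoregulation; filled points have an edgeR adjusted p under 0.05 and bars are list medians. The SR proteins spread to both sides, the kinases lie above 0 and the called hnRNP genes below.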

How the data were processed

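The authors aligned paired 100-base reads of Smart-seq2 libraries to GRCm38 with STAR, counted alignments on the Ensembl basic transcripts with summarizeOverlaps in Union mode without regard to strand, and summed them per gene. How a read on several transcripts of 1 gene was counted is not given in the sources used here. The deposited counts are whole numbers without normalization. The authors also deposited FPKM values, whose making is not described; for 98.6% of 23696 genes their length equals the union of basic-set exons of GENCODE vM21 within 0.1%. Column names give the treatment and a letter that matches no replicate number. Of the genes, 55141 of 55487 matched GENCODE vM21 by identifier, 99.4% of them with the same coordinates.

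Counts were tested with edgeR 4.0.16 in R 4.3.3: filterByExpr (minimum count 10, minimum total 15), TMM, the quasi-likelihood test and Benjamini-Hochberg adjustment over all tested genes, with calls at an adjusted p under 0.05. Standard errors were obtained as |log2 fold change| over the root of the F statistic. FPKM values were used for levels between genes and shares. Pairs were compared with a two-sided exact permutation test in scipy 1.17.1. Near-identical copies (100 bases at 95% identity) were found with blastn 2.17.0. Alternatives were DESeq2 1.42.0, RLE factors, library size only, 2 other filters (at least 1 count in any library, at least 10 in every library), gene length offsets, thinned counts, limma-trend 3.58.1 on log2(FPKM + 1) or log2(FPKM + 0.1) at an FPKM minimum of 1 (the former also without it), each library left out, and the column letter as replicate block. The tools were tested on simulated data. The SR genes and all lists were chosen with earlier results of these data known. Named genes are all SR genes, Smndc1 and, per list, up to 4 called genes with the smallest p, and 3 well expressed genes (log2 CPM of 5 or more on average) with the profile closest to the SR median; Zranb2, Srsf12, Srpk3 and Upf1 were added after their values were seen. Totals run from 59070705 to 94747943 counts. The libraries were made from low-input samples with amplification of cDNA, so the totals alone do not give the counting error. How far amplification added to the spread of the SR genes was not tested. Splicing events were not analysed here.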

Additional observations from a re-analysis of the deposited data

How the results depend on the processing

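With DESeq2, 4276 of 23783 genes and 7 SR genes were called, against 2230 of 15082 and 4 with edgeR. Srsf5 (-0.43), Srsf10 (0.41) and Srsf11 (0.50) were added. The study's limits left 1571 of 15082 genes and 2 SR genes. Library size only, in place of TMM, moved the median log2 fold change of all genes from 0.04 to 0.25 and raised every SR value by a like amount: Srsf3 (-0.42) was no longer called, Srsf10 (0.61) and Srsf11 (0.70) were, and Srsf7 turned to 0.19. With at least 10 counts in every library Srsf10 (0.42) and Srsf11 (0.50) passed, as did Srsf11 with limma-trend on log2(FPKM + 1) and log2(FPKM + 0.1) above the FPKM minimum (0.48 and 0.49), and Srsf4 (0.97) missed without it. Gene length offsets turned Srsf1 to -0.038. Libraries of equal letter showed no shared deviation (correlations of 0.003 to 0.025 across genes), and no source ties letters to the batches of cells that the treatments of a replicate shared. The letter as replicate block gave 1232 of 15082 genes and 2 SR genes, Srsf6 and Srsf9, with Srsf3 (-0.63) and Srsf4 (1.05) not called. With the block and length offsets, 994 of 15058 genes and 0 SR genes were called by edgeR. Log2 fold changes were -0.69 for Srsf3, 1.04 for Srsf4, 0.49 for Srsf6 and -1.11 for Srsf9 (edgeR adjusted p of 0.0549 to 0.0831). That of Srsf1 was -0.025. Leaving out each library gave 1253 to 1556 genes, of 15899 to 16017 tested, and 2 to 3 SR genes. Log2 fold changes were -0.73 to -0.55 for Srsf3, 0.88 to 1.26 for Srsf4 and -1.35 to -1.14 for Srsf9. They were -0.022 to 0.071 for Srsf2 and -0.10 to 0.057 for Srsf7. The cause of these differences was not tested. Srsf3, Srsf4, Srsf6 and Srsf9 kept their direction in every alternative run, and the 5 ratios kept theirs.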

Other observations

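A further list holds 17 genes outside the SR family that are known to limit their own level through splicing. Of these 1 rose and 3 fell, beside 14.8% of all tested genes that passed in either direction, and the median log2 fold change was 0.04. Rbm39, described above, was the gene that rose. Those that fell were Snrpb, which encodes an Sm core protein (from 675.3 ± 49.2 to 377.2 ± 27.3 CPM, log2 fold change -0.84, edgeR adjusted p = 0.00175), and the hnRNP genes Hnrnph1 (-1.43, edgeR adjusted p = 0.00459) and Hnrnpa2b1 (-0.85, edgeR adjusted p = 0.00807) (SD, n = 3 each). Like the SR genes, this list spread to both sides, and it shares Rbm39 and several hnRNP genes with the lists of the report.

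Among 4445 other genes whose mean log2 CPM was 5 or more, those whose centred log2 CPM over the 6 libraries lay closest to the median profile of the SR genes were Higd1a, Atp6v0b and Tmem263, with root mean square distances of 0.0282, 0.0433 and 0.0517 (log2 CPM). Their log2 fold changes were 0.12, 0.17 and 0.09, and none of the 3 passed edgeR's test. The SR genes went in both directions, with log2 fold changes of -1.25 to 1.04 and a median of 0.13. Closeness to the median profile therefore does not mean that these 3 genes varied with the SR genes that were called.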
